A study of Mus musculus with 28 samples.

Results

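ATF4 is the transcription factor at the centre of the integrated stress response, and 10 genes of this pathway were followed here through the reprogramming of mouse embryonic fibroblasts (MEFs) with and without a p38 inhibitor. They are Atf4 itself with Atf5 and Ddit3, the feedback and stress genes Trib3, Chac1 and Sesn2, the enzymes Asns, Psat1 and Phgdh, and the cystine carrier Slc7a11. The genes were chosen by name, 10 of the 50600 genes in the deposited table, with earlier results of these data known. A rise of Trib3 on day 1 of induction in p38i was among those results, so the comparison of p38i with DMSO during induction is given for these genes as a description with no test.

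In the integrated stress response, kinases that sense lack of amino acids, haem deficiency, double-stranded RNA or misfolded protein in the endoplasmic reticulum (ER) phosphorylate eIF2α. Overall translation then falls, while the Atf4 message is translated better, and ATF4 with C/EBP partners switches on genes for amino acid uptake and synthesis, for tRNA charging and for feedback on the response. Much of the control of ATF4 is on translation, which RNA-seq does not measure.

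RNA-seq of 28 libraries in 14 groups of 2 was analysed. All cells were MEFs that the labels give as WT, which by the study's methods came from embryos of 129 females crossed with males carrying OG2, a GFP reporter of Oct4 on a CBA/CaJ x C57BL/6 J background. 2 groups were MEFs before any factor was added, either untreated (MEF) or given the p38 inhibitor SB203580 (MEF p38i). The other 12 groups were cells infected with retroviruses for Oct4, Klf4 and Sox2 and sampled on days 1, 3, 5 and 7 of induction in iCD1 medium. In 4 of them the inhibitor was present during induction (p38i), in 4 it was given to the MEFs beforehand (pre-p38i), and in 4 it was not given, which the labels call ctr and the paper DMSO. The labels name no vehicle for the untreated MEFs, and the labels and the paper differ on the medium of the MEFs. By the paper the MEFs grew in medium with fetal bovine serum and were changed to iCD1 for induction. On that account MEF and induction groups differ in virus, time and medium at once. Neither source says whether the 2 libraries of a group came from separate embryos or cultures, so p-values measure only the spread between these libraries, which may be technical.

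Each value is a whole number and a library sums to between 991287 and 992537, so the values were read as TPM, a measure of a gene's share of its library per length, rounded down. The depth of the libraries is unknown, so no counting interval can be given, and a gene at 2 or 3 is known only coarsely. Differences were computed on the log2(value + 1) scale, which understates changes of low genes, and the 13230 genes whose mean over the libraries reached 1 were tested, all 10 pathway genes among them. A gene is called when its limma p-value, adjusted by Benjamini-Hochberg over all genes tested, is under 0.05. Between 72.9% and 84.1% of the tested genes had unequal values in the 2 libraries of a group, so no library was a copy of another. All 8 fibroblast markers were above 0 in every group, with summed values of 14931 and 14230 in MEF and 3392 and 3582 in DMSO on day 7. The sum of 4 pluripotency markers was 0 in the MEF groups and 72 and 79 in DMSO on day 7. Markers of other cells were also present: the sum of 10 macrophage markers was 326 and 308 in MEF and between 36 and 444 in the other groups. In bulk RNA a lower value from fewer cells of a type and one from less RNA per cell cannot be told apart.

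ATF4 binds, with C/EBP partners, the C/EBP-ATF response element, searched here as TGATGNAAN on either strand (read on the other strand as NTTNCATCA, and with no overlap of 2 motifs searched, since this was the only one). The windows run from 250 bases before to 50 bases after a start site in the RefSeq table for GRCm38.p6. The letters occurred in 4 of the 10 pathway genes and in 16 of the 75 genes of the other lists below that matched the table (21.3%). Of all 27025 genes 1215 had them (4.5%), and of all 32851 windows 1299 (3.95%). The 4 matching stretches are shown because they place the letters in genes whose values are given below, with the motif in capitals and each read along the gene.
Asns, chr6:7693210-7693262, minus strand: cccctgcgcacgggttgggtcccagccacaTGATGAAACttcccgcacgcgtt
Chac1, chr2:119351018-119351086, plus strand: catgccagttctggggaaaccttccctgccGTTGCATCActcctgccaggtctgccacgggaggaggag
Slc7a11, chr3:50443623-50443709, minus strand: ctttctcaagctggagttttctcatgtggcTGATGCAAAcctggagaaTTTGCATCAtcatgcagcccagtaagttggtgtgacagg
Trib3, chr2:152344029-152344058, minus strand: attagctcaggTTTACATCAgccgggcggg
In Asns the match began 23 bases before the start site, on the gene's own strand. In Chac1 it began 194 bases before the start site, on the opposite strand. Slc7a11 had a pair of matches 66 and 48 bases before its start site, on both strands, and in Trib3 the match lay 13 bases after the start site, on the opposite strand. These letters were not in the windows of Ddit3, Atf4, Atf5, Sesn2, Psat1 or Phgdh, and a match is a description of the sequence, not a bound site. The start sites are those of RefSeq and can differ from the loci of the deposited table given below. In that table Trib3, on the minus strand, starts at 152344032, and the match lies before that start. The Psat1 windows, 15924573 to 15924872 and 15925010 to 15925309, lie inside its locus there, far from its start at 15947337.

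**Figure D1:**
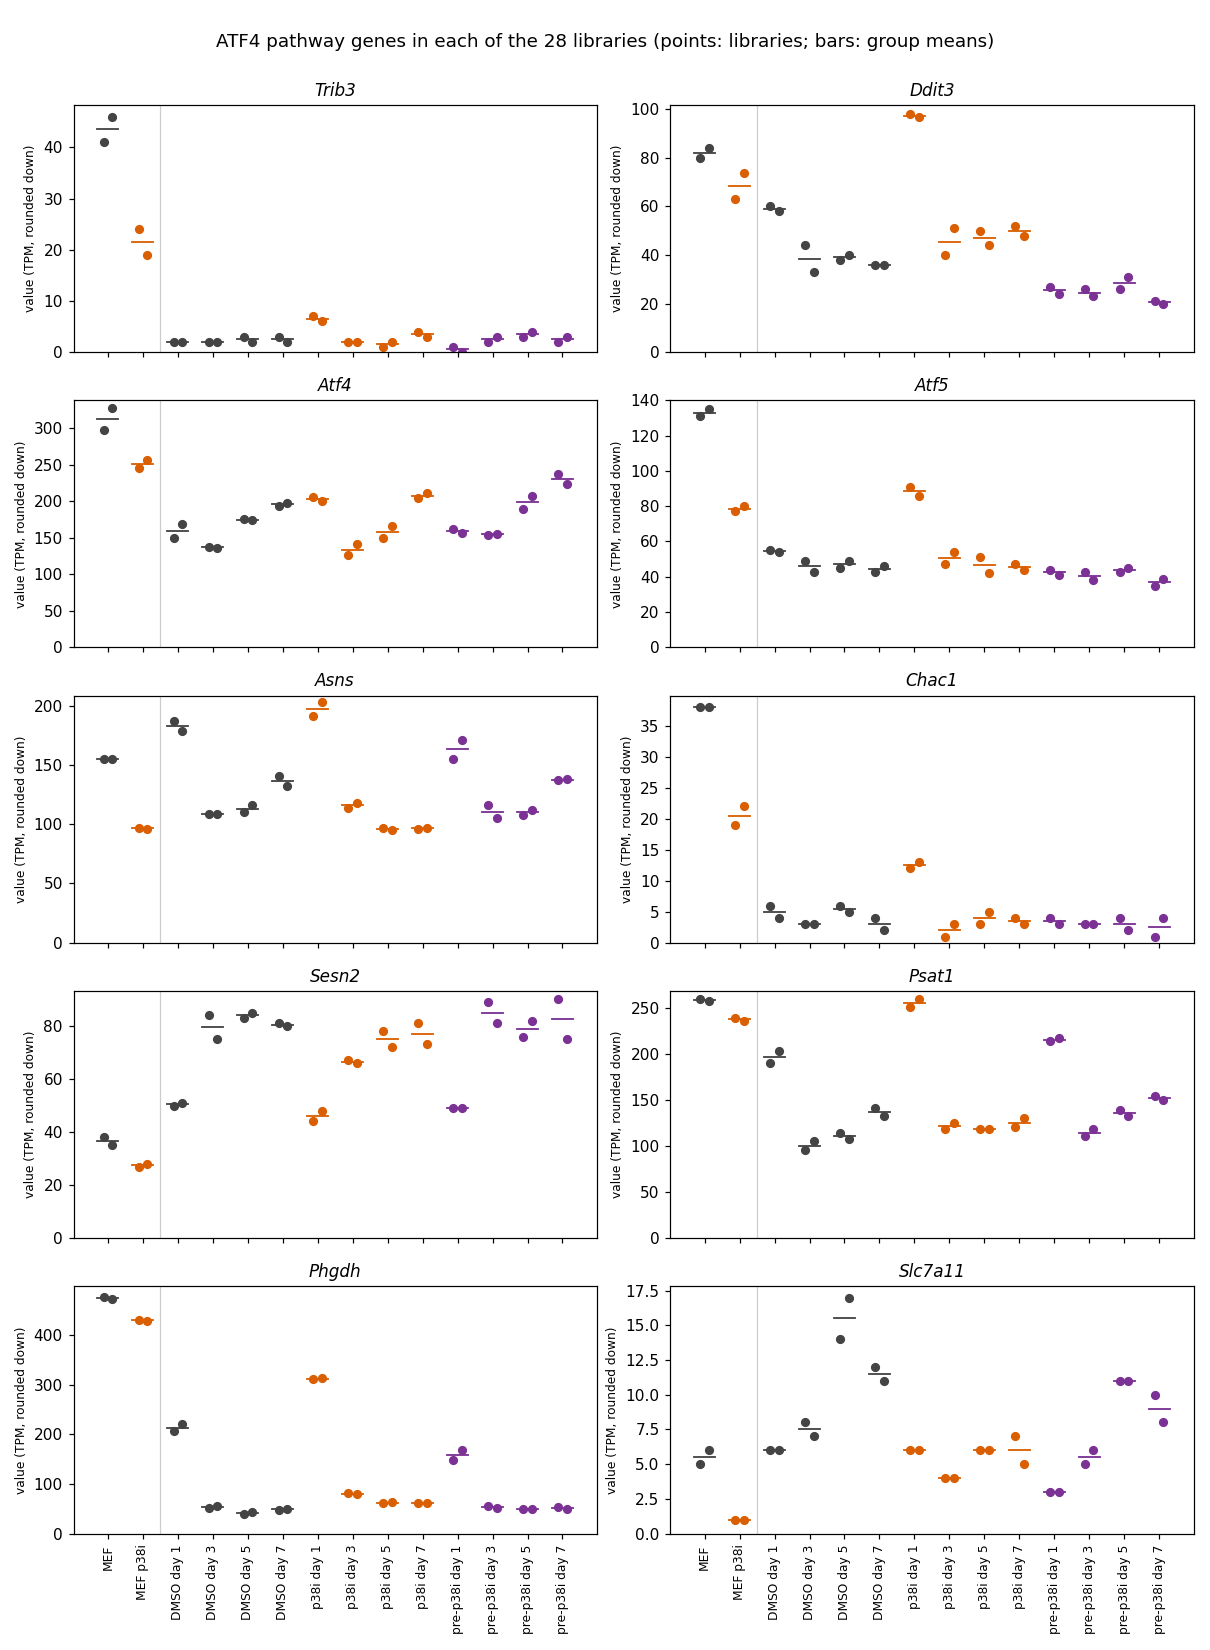
Value (TPM, rounded down) of each pathway gene in each of the 28 libraries, with groups on the x axis, 1 point per library and a bar at the group mean. Trib3 and Chac1 stood at 41 and 46 and at 38 and 38 in MEF and at no more than 7 and 13 in the libraries of the induction, while Sesn2 was lowest in the MEF groups.

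The first comparison follows the pathway from MEF through induction in DMSO, the course against which the inhibitor groups are read. Between MEF and DMSO day 1, 7 of the 10 genes fell, 2 rose and Slc7a11 was not called. Of all genes tested, 18.9% were called lower and 36.6% higher in this comparison, with a median log2 difference of 0.14. Under quantile normalization that median moved to -0.07 and the calls over all genes from 4840 higher and 2500 lower to 3392 and 3751, while each of the 9 calls among the 10 genes held.

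The transcription factors differed in how far they fell. Atf4 (ENSMUSG00000042406, chromosome 15, 80255184 to 80257540 in the deposited table) had values of 298 and 328 in MEF and of 149 and 169 in DMSO on day 1. Every MEF library was above every DMSO library of days 1 to 7, where Atf4 ranged from 136 to 197. The log2 difference on day 1 was -0.97 (SE 0.07, limma adjusted p = 1.7e-10). Atf5, a related bZIP factor that is also controlled by translation and is a target of the response (ENSMUSG00000038539, chromosome 7, 44812256 to 44816658), went from 131 and 135 to 55 and 54. The log2 difference was -1.27 (SE 0.09, limma adjusted p = 4.5e-10), and between 43 and 49 was measured on days 3 to 7. Ddit3 encodes CHOP, a bZIP factor that promotes death under lasting stress (ENSMUSG00000025408, chromosome 10, 127290774 to 127296288). It fell less at first, from 80 and 84 to 60 and 58, with a log2 difference of -0.47 (SE 0.13, limma adjusted p = 0.00348). It was lower again on day 7, at 36 and 36, and differed by -0.70 (limma adjusted p = 9.4e-05) from day 1. Atf5 and Ddit3 each overlap a gene on the other strand, Nup62 and Mars, with mean values of 66.3 and 85. Whether the counting used strand is not given in the sources used here, so reads of the 2 genes of such a pair may not be told apart. The annotation also holds another protein-coding entry named Ddit3, which overlaps this one on the same strand. That entry has no value in the deposited table, and how its reads were counted is unknown.

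The largest falls of the 10 were those of Trib3 and Chac1. Trib3 encodes a pseudokinase that binds ATF4 and AKT and restrains them (ENSMUSG00000032715, chromosome 2, 152337422 to 152344032). Its values were 41 and 46 in MEF and 2 and 2 in DMSO on day 1, and it stayed between 2 and 3 up to day 7. The log2 difference of -3.89 (SE 0.28, limma adjusted p = 4.1e-10) is a fold of 0.0675 on the log2(value + 1) scale. Chac1, an enzyme that degrades glutathione (ENSMUSG00000027313, chromosome 2, 119351229 to 119354381), had 38 and 38 in MEF and 6 and 4 on day 1. That is a log2 difference of -2.72 (SE 0.37, limma adjusted p = 3.2e-06), and days 3 to 7 held values of 2 to 6. Sesn2 encodes sestrin 2, a leucine sensor that restrains mTORC1 (ENSMUSG00000028893, chromosome 4, 132492032 to 132510501). It went the other way, from 38 and 35 in MEF to 50 and 51 on day 1 and 81 and 80 on day 7. It rose by 0.46 (SE 0.08, limma adjusted p = 8.0e-05) between MEF and day 1 and by 0.66 (SE 0.08, limma adjusted p = 1.1e-06) between days 1 and 7, and the libraries of these 3 points did not overlap.

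Among the enzymes, those of serine synthesis fell most during induction. Phgdh encodes the first enzyme of serine synthesis from glycolysis (ENSMUSG00000053398, chromosome 3, 98313170 to 98339990). It had values of 477 and 474 in MEF, 207 and 221 on day 1 and 51 and 55 on day 3, and then lay between 40 and 50. Its log2 difference between days 1 and 7 was -2.10 (SE 0.06, limma adjusted p = 3.9e-16). Psat1, the next enzyme of that route (ENSMUSG00000024640, chromosome 19, 15904678 to 15947337), went from 260 and 257 to 190 and 203 on day 1 and 96 and 105 on day 3, and stood at 141 and 133 on day 7. It was called lower on day 1 than in MEF (-0.39, limma adjusted p = 3.3e-06) and on day 7 than on day 1 (-0.52, limma adjusted p = 1.1e-07). Asns encodes asparagine synthetase (ENSMUSG00000029752, chromosome 6, 7675169 to 7693254). It rose from 155 and 155 in MEF to 187 and 179 on day 1 (0.24, limma adjusted p = 0.00107), had 109 and 109 on day 3 and ended at 141 and 132, below day 1 (-0.42, limma adjusted p = 2.2e-06).

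Slc7a11 encodes the carrier that exchanges cystine for glutamate (ENSMUSG00000027737, chromosome 3, 49892526 to 50443614). Its values were 5 and 6 in MEF and 6 and 6 on day 1. The highest were 14 and 17 on day 5, followed by 12 and 11 on day 7. The rise from day 1 to day 7 was 0.84 (SE 0.15, limma adjusted p = 1.1e-04). A stretch of 373 nt in its transcripts is at least 95% identical to the abundant tubulin genes Tuba1a, Tuba1b and Tuba1c, which reach 3679, 2530 and 810, so reads may be shared and its values are uncertain. Phgdh has 13 near-identical copies elsewhere in the annotation, and the 10 of them in the table were at 0 in every library. Between days 1 and 7 in DMSO, 5 of the 10 genes were called lower (Phgdh, Ddit3, Psat1, Asns and Atf5) and 3 higher (Slc7a11, Sesn2 and Atf4), against 26.1% and 28.4% of all genes. The call of Atf5 (limma adjusted p = 0.0135) was lost without the first library of either day, with adjusted p up to 0.208. Trib3 (0.21, and -0.27 under quantile normalization) and Chac1 (-0.61) were not called. Under quantile normalization Chac1 was called lower (limma adjusted p = 0.0351). The call of Atf4 was lost when only the groups compared were fitted and without the first libraries of both days.

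Before induction, the inhibitor was compared in MEFs, which asks what it did to the cells that pretreatment later put through reprogramming. All 10 genes had lower values in both MEF p38i libraries than in both untreated ones, which held for 20.5% of all genes tested, and 6 of the 10 were called lower, against 8.15% of all genes. None was called higher, against 9.73% of all genes, and the median log2 difference of all genes was 0.00. The genes were chosen with earlier results of these libraries known, and whether this comparison was among them is not recorded, so these counts are not independent evidence.

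Slc7a11 had 1 and 1 in MEF p38i against 5 and 6 in MEF, a log2 difference of -1.70 (SE 0.15, limma adjusted p = 1.4e-07) that rests on low values and on a sequence shared with tubulins. Trib3 had 24 and 19 against 41 and 46, with a log2 difference of -0.99 (SE 0.28, limma adjusted p = 0.0194), about 0.503 of the untreated level. This call was lost in 7 of 12 other settings, in which the adjusted p reached 0.34. One of them left out the first untreated library, another the second untreated library and another the second treated library. Atf5 had 77 and 80 against 131 and 135 (-0.75, SE 0.09, limma adjusted p = 9.4e-06). Asns had 97 and 96 against 155 and 155 (-0.68, SE 0.06, limma adjusted p = 3.6e-08). For both, the gap between the groups was many times the gap between the 2 libraries of a group. Sesn2 had 27 and 28 against 38 and 35 (-0.39, limma adjusted p = 0.00191) and Atf4 had 245 and 256 against 298 and 328 (-0.32, limma adjusted p = 0.00211). Both of these calls were lost when only the 4 MEF libraries were fitted.

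Chac1 (19 and 22 against 38 and 38), Ddit3 (63 and 74 against 80 and 84), Phgdh (432 and 429 against 477 and 474) and Psat1 (239 and 236 against 260 and 257) were not called. Their log2 differences were -0.86, -0.26, -0.14 and -0.12, with limma adjusted p-values between 0.118 and 0.174. The macrophage marker sum also differed between these groups, at 214 and 217 in MEF p38i against 326 and 308, with all 10 markers above 0 in both groups, and the fibroblast marker sum was 10946 and 11049 against 14931 and 14230. Their part in the differences of the 10 genes was not tested. Of 4 endothelial markers 3 were at 0 in both groups, and all 3 keratinocyte markers were at 0.

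Other genes of the pathway and genes next to it were taken from 9 lists of 97 further genes, 95 of which were tested. All are called other pathway genes for short. They include lists beside the pathway: NRF2 targets, mitochondrial chaperones and proteases, and relatives of the 10 genes that are not typical ATF4 targets. Counts over the 95 mix these lists. The lists were chosen with earlier results of these data known, so counts of their genes are not independent evidence, here or below. In MEF p38i, 43 of the 95 were called lower and 4 higher, with a median of -0.22 against 0.00 for all genes, beside the 8.15% and 9.73% given above. A fit of the 4 MEF libraries alone called 19 of them, 18 lower and 1 higher. The share of all genes called in that fit was not recorded. Of 14 genes for tRNA charging and export 11 were lower, with Tars at -0.53, Nars at -0.47 and Gars at -0.43. Of 8 amino acid transporters 6 were lower, led by the arginine transporter Slc7a3 with 1 and 1 against 5 and 4. Those rounded values are low, and Slc7a3 reached higher ones only during induction. Slc3a2, the heavy chain that pairs with Slc7a11 and Slc7a5, was lower by -0.50. Of 12 genes of serine, one-carbon and amino acid synthesis 6 were lower. Cth, which makes cysteine from cystathionine, had 5 and 3 against 15 and 20, and Mthfd2, a mitochondrial one-carbon enzyme, had 72 and 68 against 116 and 117.

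Among 15 partners and feedback genes of ATF4, 8 were called lower in MEF p38i. Nupr1, a stress-induced chromatin protein, had 33 and 36 against 119 and 141 (-1.88, SE 0.10, limma adjusted p = 6.4e-11). Ddit4, which restrains mTORC1, had 29 and 26 against 85 and 92 (-1.65, SE 0.08, limma adjusted p = 4.6e-11). Ppp1r15a encodes the stress-induced subunit that brings a phosphatase to eIF2α, and was lower by -0.57 (limma adjusted p = 5.0e-05). The C/EBP partner Cebpb was lower by -0.42 (limma adjusted p = 0.0131), while Atf3 (-0.44) and Cebpg (-0.41) were not called.

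In the lists next to the ATF4 pathway, lower calls in MEF p38i occurred in each list but the relatives of the 10 genes. Higher calls occurred only for Eif2ak2 and among those relatives. Over all genes, 8.15% were called lower and 9.73% higher. Of 16 ER chaperone and unfolded protein response genes 4 were called lower, and Hspa5, the main ER chaperone, was not called, with 738 and 762 against 773 and 807. Of 12 genes for eIF2α kinases, eIF2 and eIF2B subunits 2 were lower, and 1, the double-stranded RNA kinase Eif2ak2, was higher (0.41). Of 8 targets of NRF2, the regulator of the oxidative stress response, 4 were lower, with Nqo1 at 83 and 79 against 236 and 234. Of 5 mitochondrial chaperones and proteases 2 were lower. Of 5 relatives of the 10 genes that are not typical ATF4 targets, none was lower and 3 were higher: Sesn3 (0.83), Trib2 (0.63) and Sesn1 (0.51).

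During induction the inhibitor was compared with DMSO on the same day, as a description only for the 10 genes. On day 1, 8 of the 10 had higher values in both p38i libraries than in both DMSO libraries, against 13.5% of all genes, and Sesn2 was lower, against 33.8% of all genes. These shares bear on the contrast with which the genes were chosen, and nothing is read from them.

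Trib3 had 7 and 6 in p38i on day 1 against 2 and 2 in DMSO, a log2 difference of 1.32 (SE 0.28), still far below the 41 and 46 of MEF. Chac1 had 12 and 13 against 6 and 4, a difference of 1.19 (SE 0.37). Ddit3 had 98 and 97 against 60 and 58 (0.72, SE 0.13), and these were the highest Ddit3 values of all 28 libraries. Atf5 had 91 and 86 against 55 and 54 (0.69, SE 0.09), and Phgdh had 312 and 313 against 207 and 221 (0.54, SE 0.06). Psat1 had 251 and 259 against 190 and 203 (0.37), Atf4 had 206 and 200 against 149 and 169 (0.35), and Asns had 191 and 203 against 187 and 179 (0.11). Sesn2 had 44 and 48 against 50 and 51 (-0.13), and Slc7a11 had 6 in each of the 4 libraries. The macrophage marker sum was 192 and 208 in p38i on day 1 and 268 and 261 in DMSO, and its part in these differences was not tested.

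On day 3 the 2 p38i libraries of 3 genes lay above both DMSO libraries (Phgdh, Psat1 and Asns), and those of 2 lay below (Sesn2 and Slc7a11). Over all genes 15.6% lay above and 33.3% below on that day. Trib3 was at 2 in all 4 libraries, Atf5 had 47 and 54 against 49 and 43, and Chac1 had 1 and 3 against 3 and 3, so the day 1 gap was no longer seen in these genes. On day 5 Ddit3, Phgdh and Psat1 lay above and Asns, Atf4, Sesn2 and Slc7a11 below, against 17.3% and 34.2% of all genes. On day 7 Atf4, Ddit3 and Phgdh lay above and Asns, Psat1 and Slc7a11 below, against 29.0% and 30.3% of all genes. The macrophage marker sum was 263 and 249 in p38i against 431 and 444 in DMSO on day 3, 219 and 230 against 436 and 430 on day 5, and 224 and 197 against 219 and 218 on day 7. The pluripotency marker sum was 8 and 10 against 72 and 79 on day 7, with 2 of the 4 markers at 0 in p38i and none in DMSO. The fibroblast marker sum was 6165 and 6049 against 7565 and 7102 on day 3 and 4258 and 4223 against 3392 and 3582 on day 7. Their part in the differences of these days was not tested.

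Phgdh was the only one of the 10 to lie above DMSO on all 4 days, with 81 and 79 against 51 and 55 on day 3, 61 and 63 against 40 and 43 on day 5, and 62 and 61 against 48 and 50 on day 7. Ddit3 had 52 and 48 against 36 and 36 on day 7. Slc7a11 had 6 and 6 against 14 and 17 on day 5, and 7 and 5 against 12 and 11 on day 7. Asns had 96 and 97 against 141 and 132 on day 7, so its sign differed between day 1 and day 7. The mean log2 difference over the 4 days was 0.51 for Phgdh, 0.42 for Ddit3, 0.30 for Trib3, 0.21 for Atf5, 0.16 for Psat1, 0.12 for Chac1, 0.06 for Atf4, -0.13 for Asns, -0.15 for Sesn2 and -0.71 for Slc7a11.

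**Figure D2:**
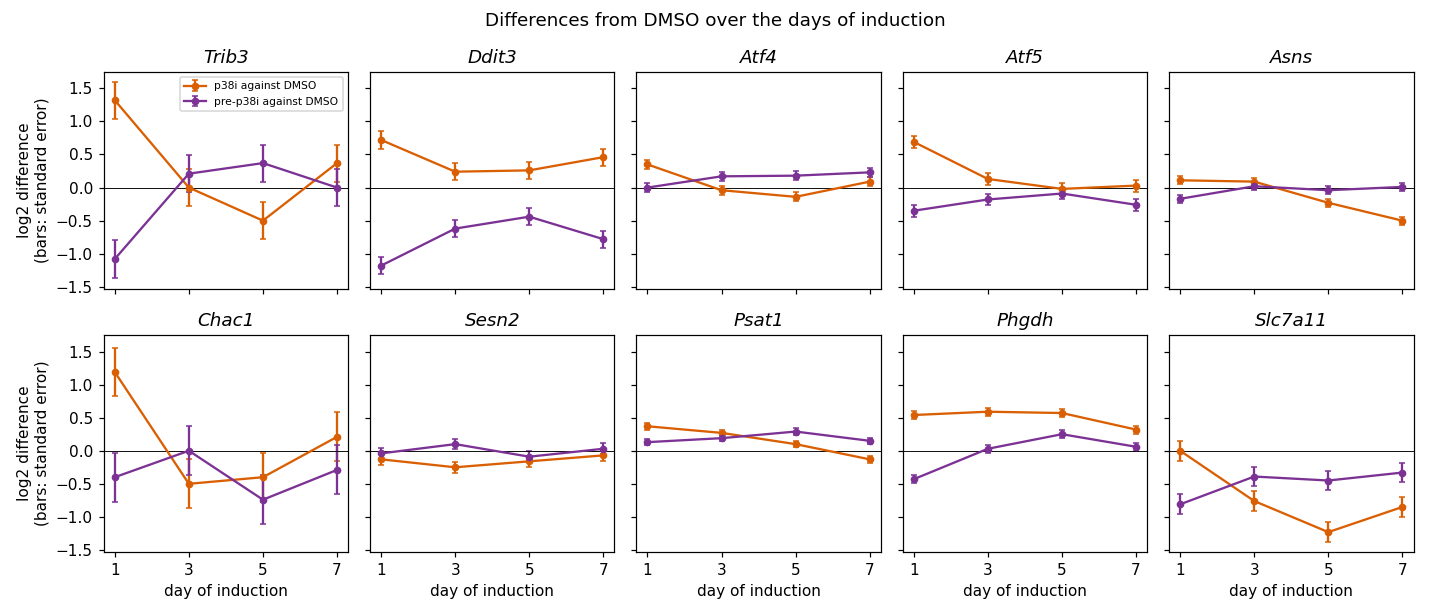
Log2 difference of value + 1 between p38i and DMSO and between pre-p38i and DMSO (y axis; bars are standard errors of the fit) against the day of induction, 1 panel per gene. For Trib3 the p38i line starts at 1.32 and the pre-p38i line at -1.08 on day 1, and the Ddit3 lines lie on opposite sides of 0 on all 4 days; both lines of a panel share the DMSO libraries.

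The other pathway genes on day 1 in p38i were called in both directions. Their lists were chosen with earlier results of these data known, so these counts are not independent evidence. Of the 95, 19 were higher and 9 lower, where 3.47% of all genes were higher and 12.6% lower. A fit of the 4 libraries alone called 12 in place of 28, 7 higher and 5 lower, and leaving out libraries gave 13 to 24. Shares of all genes called in those fits were not recorded. Under quantile normalization the list calls were 23 and 6, and those over all genes moved from 459 higher and 1669 lower to 637 and 912. Serine, one-carbon and amino acid synthesis had 7 of 12 genes higher and 1 lower. Aldh1l2, a mitochondrial folate enzyme, had 12 and 14 against 6 and 6, and Psph, the last enzyme of serine synthesis, had 50 and 53 against 31 and 34, while Cth was lower, with 25 and 26 against 45 and 40. Of the 14 tRNA charging genes 6 were higher and none lower, with Cars at 0.52, Aars at 0.45 and Sars at 0.40.

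Not all genes of the response were higher on day 1 in p38i. Ddit4 (-0.58) and Gdf15, a stress-induced cytokine (-0.82), were called lower, while Gadd45a (0.39) and Eif4ebp1 (0.24) were called higher. No ER chaperone or unfolded protein response gene was called higher and 4 of 16 were lower, among them Atf6 (-0.45) and Hsp90b1 (-0.31). Over the 4 days, 13 of the 95 genes were called higher and 45 lower, against 14.9% and 33.0% of all genes. This split also moved under quantile normalization, to 20 higher and 32 lower among the 95, and from 1976 and 4361 to 3391 and 2846 over all genes.

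Between day 1 and day 7 the difference between p38i and DMSO moved down in 35 of the 95 genes and up in 6, against 7.55% down and 14.1% up over all genes. Of the tRNA charging genes 10 of 14 moved down, of the serine and one-carbon list 7 of 12, of the transporters 5 of 8 and of the mitochondrial chaperones and proteases 4 of 5. The count of 41 genes was 19 without the first and 17 without the second libraries of the groups compared. The pluripotency and fibroblast marker sums of day 7 given above also differed between p38i and DMSO, and their part in this change was not tested. For the 10 genes themselves the same change was -0.98 for Chac1, -0.95 for Trib3, -0.85 for Slc7a11, -0.66 for Atf5, -0.60 for Asns and -0.50 for Psat1, given as values only.

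The difference the inhibitor made in MEFs and on day 1 of induction was then set side by side, from contrasts of 4 libraries each that share none. In 8 of the 10 genes, all but Sesn2 and Slc7a11, both treated libraries lay below both untreated ones in MEFs and above them on day 1, which held for 2.43% of all genes tested. The day 1 difference less the MEF difference was 2.31 for Trib3, 2.05 for Chac1, 1.44 for Atf5, 0.98 for Ddit3, 0.78 for Asns, 0.69 for Phgdh, 0.67 for Atf4 and 0.50 for Psat1. It was 1.70 for Slc7a11, which was lower in MEF p38i and equal on day 1, and 0.26 for Sesn2, which was lower in both. These values contain the contrast with which the genes were chosen and have no test.

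**Figure D3:**
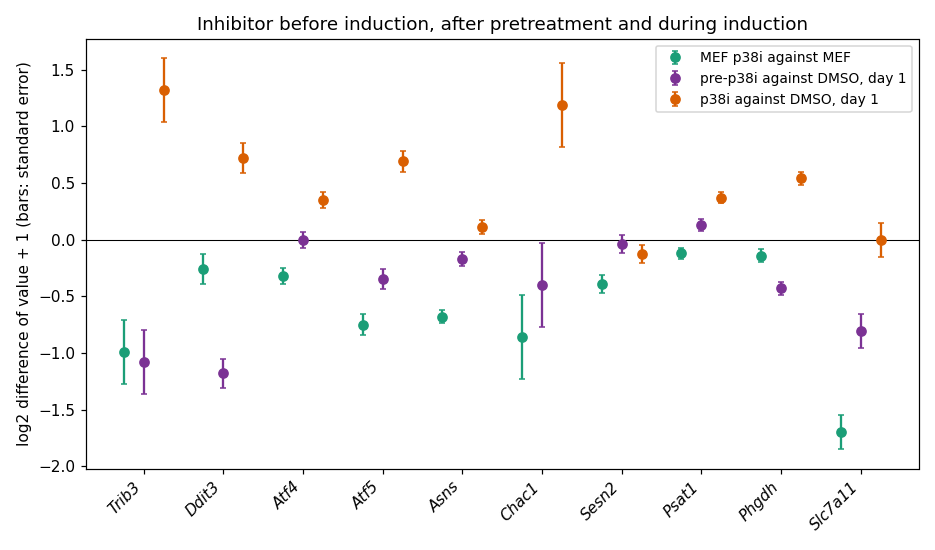
Log2 difference of value + 1 for each of the 10 genes (x axis) between MEF p38i and MEF, between pre-p38i and DMSO on day 1, and between p38i and DMSO on day 1, with standard errors of the fit as bars. The MEF p38i points lie below 0 for all 10 genes and the p38i points lie above 0 for 8, and the 2 day 1 comparisons share the DMSO libraries.

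For the other pathway genes the same difference of differences was tested gene by gene. Their lists too were chosen with earlier results of these data known, so the counts are not independent evidence. Of the 95, 36 were called higher and 5 lower, where 3.47% of all genes were higher and 10.8% lower, and the medians were 0.18 for the 95 and -0.10 for all genes. Quantile normalization gave 38 and 5 among the 95 and moved the calls over all genes from 459 and 1435 to 494 and 787. Among the tRNA charging genes 9 of 14 were higher, with Cars at 0.84 (limma adjusted p = 4.6e-06), and none was lower. Likewise 6 of 8 transporters, 8 of 12 serine and one-carbon genes, 7 of 15 partners and feedback genes and 4 of 8 NRF2 targets were higher.

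These calls mixed different courses. Aldh1l2 (2.13) and Psph (1.23) were called lower or had lower values in MEF p38i and were called higher on day 1 in p38i. Nupr1 (2.00) was called lower in MEF p38i and not called on day 1. Nqo1 (1.21), Cth (1.19) and Ddit4 (1.07) were called lower in both, by less on day 1. The 5 genes called lower were Sesn3 (-1.13), Trib2 (-0.92), Eif2ak2 (-0.76), Sesn1 (-0.71) and Hsp90b1 (-0.19), and Hsp90b1 was the only one of 16 ER genes called.

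**Figure D4:**
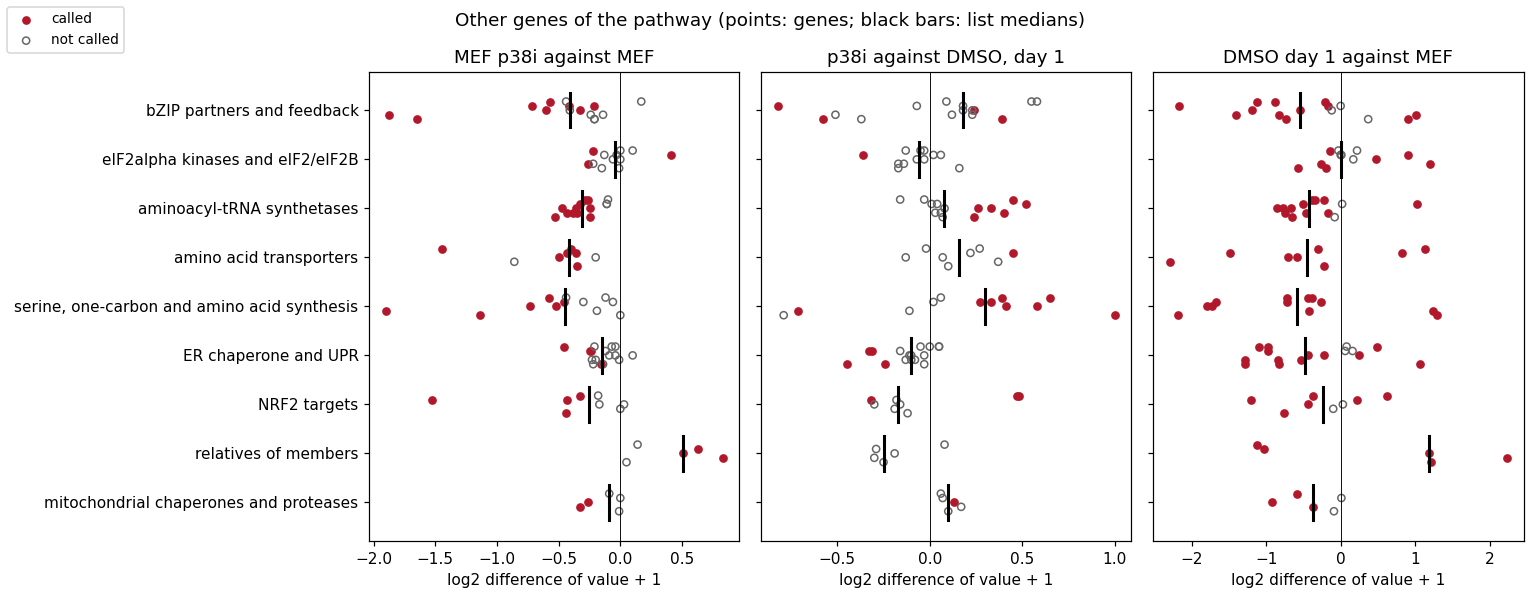
Log2 difference of value + 1 (x axis) of the 95 other pathway genes tested, by list (rows), with the lists beside the pathway included. Panels show MEF p38i against MEF, p38i against DMSO on day 1, and DMSO day 1 against MEF. Filled points are called genes, open points are not, and black bars are list medians; in MEF p38i, 11 of 14 tRNA charging genes lie to the left as called, and on day 1 of p38i 6 of them lie to the right.

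In pre-p38i the inhibitor was given before induction only, and the comparison with DMSO asks how such cells differed during induction. On day 1, 5 of the 10 genes were called lower in pre-p38i, against 6.24% of all genes, and none higher, against 5.40%. Ddit3 had 27 and 24 against 60 and 58 in DMSO, a log2 difference of -1.18 (SE 0.13, limma adjusted p = 3.8e-06). Slc7a11 had 3 and 3 against 6 and 6 (-0.81, limma adjusted p = 0.00153), and Phgdh had 149 and 168 against 207 and 221 (-0.43, limma adjusted p = 9.3e-05). Atf5 had 44 and 41 against 55 and 54 (-0.35, limma adjusted p = 0.0182). Trib3 had 1 and 0 against 2 and 2 (-1.08, limma adjusted p = 0.0168), a difference of 1 or 2 units of rounded values. The calls of Trib3 and Atf5 were each lost in 6 of 12 other settings, with adjusted p up to 0.413 and 0.232. Leaving out either DMSO library or the second pre-p38i library of day 1 ended both calls, and without either DMSO library the count was 3 in place of 5. Atf4 had 162 and 156 against 149 and 169 (0.00), and the groups overlapped. The macrophage marker sum was 96 and 93 in pre-p38i and 268 and 261 in DMSO on day 1, with 9 and 10 of the 10 markers above 0, and its part in these differences was not tested.

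Ddit3 was called lower in pre-p38i on every day. It had 26 and 23 against 44 and 33 on day 3 (-0.62, limma adjusted p = 0.00148), and 26 and 31 against 38 and 40 on day 5 (-0.44, limma adjusted p = 0.0129). On day 7 it had 21 and 20 against 36 and 36 (-0.78). The libraries did not overlap on any day. When only the groups compared were fitted, the calls of days 3 and 5 were lost and those of days 1 and 7 held. The day 3 call was also lost without the first libraries of both groups. Over all other settings the difference stayed between -0.82 and -0.42 on day 3 and between -0.57 and -0.32 on day 5.

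On day 3 only Psat1 was called higher (0.19, limma adjusted p = 0.0185) and only Ddit3 lower, against 13.8% and 6.87% of all genes. These calls over all genes moved from 1820 higher and 909 lower to 1322 and 1284 under quantile normalization, in which the call of Psat1 was lost and Atf5 (-0.27, limma adjusted p = 0.0494) and Slc7a11 (-0.51, limma adjusted p = 0.0235) were called lower, so that 3 of the 10 genes were lower and 0 higher. The call of Psat1 was also lost without the first DMSO or the second pre-p38i library of that day. On day 5 Psat1 (139 and 133 against 114 and 108) and Phgdh (50 and 49 against 40 and 43) were called higher and Ddit3 and Slc7a11 lower, against 14.3% and 11.3% of all genes. Leaving out 1 library ended the calls of Slc7a11 (the second DMSO or either pre-p38i library), Ddit3 (the second DMSO or the first pre-p38i library) and Phgdh (the first DMSO library), with adjusted p up to 0.381 over all settings, while Psat1 kept its call in each of these. On day 7 Atf4 (237 and 223 against 194 and 197) and Psat1 (154 and 150 against 141 and 133) were called higher and Atf5 (35 and 39 against 43 and 46) and Ddit3 lower, against 15.4% and 14.5% of all genes. Leaving out the first pre-p38i library of day 7 ended the calls of Atf4, Atf5 and Psat1 and left that of Ddit3. The first DMSO library did so for Atf4 and Atf5, the second DMSO library for Atf5 and Psat1, and the second pre-p38i library for Psat1, with adjusted p up to 0.307 over all settings. On day 7 the macrophage sum was 48 and 36 in pre-p38i against 219 and 218 in DMSO, the pluripotency sum 130 and 124 against 72 and 79, and the fibroblast sum 2526 and 2383 against 3392 and 3582. On day 3 the macrophage sum was 177 and 163 against 431 and 444 and on day 5 it was 87 and 87 against 436 and 430. Their part in these differences was not tested.

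Averaged over the 4 days, 3 of the 10 genes were called lower in pre-p38i and 2 higher, against 17.7% and 27.3% of all genes. The lower ones were Ddit3 (-0.76, SE 0.06, limma adjusted p = 9.0e-09), Slc7a11 (-0.49, SE 0.08, limma adjusted p = 2.9e-05) and Atf5 (-0.22, SE 0.05, limma adjusted p = 7.1e-04). The higher ones were Psat1 (0.19, SE 0.03, limma adjusted p = 1.1e-05) and Atf4 (0.15, SE 0.03, limma adjusted p = 0.00133). The call of Atf4 was lost without the first libraries of all groups compared (limma adjusted p = 0.11) and that of Atf5 without the second ones (limma adjusted p = 0.0514). The remaining 5 had differences between -0.36 for Chac1 and 0.00 for Sesn2 and were not called. A change of the difference from day 1 to day 7 was called in 1 of the 10 genes, against 16.7% of all genes: Phgdh went from -0.43 on day 1 to a difference larger by 0.49 on day 7 (SE 0.09, limma adjusted p = 4.9e-04).

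Among the other pathway genes, 28 of 95 were called higher and 18 lower over the 4 days of pre-p38i, shares near those of all genes. Quantile normalization gave 20 higher and 23 lower among the 95. It moved the calls over all genes from 3611 higher and 2346 lower to 3114 and 2805. Of the 15 partners and feedback genes 7 were lower and 2 higher. Nupr1 was lower by -1.02, with 136 and 119 against 258 and 266 on day 1, Gadd45a by -0.53, Ppp1r15a by -0.50 and Eif4ebp1 by -0.43. Ddit4 (0.44) and Ppp1r15b, the constitutive partner of Ppp1r15a (0.27), were higher. Of the 14 tRNA charging genes 7 were higher and 1 lower, and of the 12 serine and one-carbon genes 6 were higher and 1 lower.

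In the comparison of DMSO day 1 with MEF, 60 of the 95 other pathway genes were called lower and 18 higher, against 18.9% and 36.6% of all genes, with a median of -0.37 against 0.14 for all genes. Cebpb had 25 and 25 against 122 and 110, Mthfd2 had 36 and 33 against 116 and 117, and Hspa5 had 374 and 362 against 773 and 807, so ATF4 partners, one-carbon enzymes and ER chaperones were all among them. Of the 5 relatives, Sesn3 (2.23), Chac2 (1.22) and Sesn1 (1.19) rose and Trib1 (-1.12) and Trib2 (-1.03) fell. From day 1 to day 7 in DMSO, 35 of the 95 were higher and 27 lower, against 28.4% and 26.1% of all genes, and Slc7a3 went from 11 and 11 to 203 and 200.

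The 10 genes did not share 1 course. Over the 14 group means, each gene's profile was correlated with the mean profile of the other 9, as a description over groups that share days and treatments. Atf5 (r = 0.90) and Chac1 (0.86) followed the others most closely, then Trib3 (0.76), Psat1 and Phgdh (0.73 each) and Ddit3 and Atf4 (0.67 each). Asns had 0.38, Slc7a11 -0.33 and Sesn2 -0.79. The closest pairs were Atf5 with Chac1 (0.94) and Psat1 with Phgdh (0.92), and Sesn2 ran opposite to Phgdh (-0.97). Among 10658 other genes with a mean of at least 5, the 5 whose 14 group means were most like the mean profile of the 10 were Nars (0.954), Rars (0.928), Aldh1l2 (0.917), Cyb5r1 (0.910) and Yars (0.908). Nars, Rars and Yars encode the synthetases for asparagine, arginine and tyrosine, and Nars had 323 and 333 in MEF, 237 and 236 in MEF p38i, 210 and 203 in DMSO on day 1 and 235 and 259 in p38i on day 1.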

How the data were processed

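The authors deposited 1 RNA-seq table with a whole-number score for each of 50600 genes in each of 28 libraries. The library totals, between 991287 and 992537, led to reading these deposited values as TPM that the authors rounded down, normalized for library size and gene length. No depth can be derived from them. The submitters' processing notes name bcl2fastq, Bowtie2 2.2.5 and RSEM 1.3.0 without roles, and the builds hg38 and mm10. Labels and paper differ on the RNA extraction, the library kit and the medium of the MEFs.

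Groups and replicate numbers came from the sample labels. Values were compared on log2(value + 1) with limma 3.58.1 (R 4.3.3; functions lmFit and eBayes, trend on), with all 14 groups in 1 model and no replicate block, over the 13230 genes whose mean reached 1. Adjusted p-values (Benjamini-Hochberg over all genes tested) under 0.05 were called. The scripts were tested on simulated data. An exact permutation test of 2 libraries against 2 cannot give a p below 0.333. No pairing of libraries by replicate number was seen, since their deviations correlated between -0.0838 and 0.0874 across groups. A small shared effect could be missed by this measure.

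The 10 genes, the 9 lists of other pathway genes and the marker lists were chosen with earlier results of these data known. Named besides the 10 are a fixed set of relatives and regulators, for each list and comparison up to 3 called genes that rose most and 3 that fell most with a mean of at least 5 and groups that do not overlap, and the 5 genes most like the 10. Genes named for the difference of differences and for the mean of the 4 days of pre-p38i were chosen after their values were seen. Coordinates are those of the deposited table, and 9 of the 10 genes have the same ones in GENCODE M21 of GRCm38. Near-identical copies (95% identity or more along at least 200 nt) were searched with blastn 2.17.0, promoter windows came from RefSeq for GRCm38.p6, and plots were drawn with matplotlib 3.10.9. As alternatives, the pseudocount was set to 0.1, the filter was dropped or raised to a mean of 5, only the groups under comparison were fitted, replicate number was added as a block, values were quantile-normalized, and libraries were left out. Leaving out single libraries, and the alternatives for list counts beyond MEF p38i and the means of the 4 days and for the change of the pre-p38i difference, were added after the data were seen.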

Additional observations from a re-analysis of the deposited data

Results flagged for a closer look

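In 8 of the 10 genes the difference between treated and untreated libraries had opposite signs in MEFs and on day 1 of induction, with every treated library below every untreated one in MEFs and above on day 1, as in 2.43% of all genes tested. The day 1 difference less the MEF difference was 2.31 for Trib3, 0.98 for Ddit3, 0.67 for Atf4, 1.44 for Atf5, 0.78 for Asns, 2.05 for Chac1, 0.50 for Psat1 and 0.69 for Phgdh on the log2 scale. This difference was not tested, because the genes were chosen with the day 1 result known.

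The pre-p38i difference of Phgdh changed by 0.49 between day 1 and day 7, which passed the limma test of that change. Among Atf4 and the genes first listed with it, only Phgdh passed. Of all genes tested, 16.7% passed in either direction, so a pass of this test was not rare. Among the 95 other pathway genes tested, the day 1 difference of p38i from DMSO less that in MEFs was called higher in 36 and lower in 5, gene by gene. Of all genes, 3.47% were called higher and 10.8% lower. The change of the p38i difference from day 1 to day 7 was called higher in 6 and lower in 35 of the 95, against 14.1% and 7.55% of all genes. The lists were chosen with earlier results of these data known, so these counts are not independent evidence. A group holds 2 libraries, so no library could be tested as standing apart from its group.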

How the results depend on the processing

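None of the values recomputed under the alternatives changed sign where it was called. Counts of the 10 genes called in MEF p38i (6), in DMSO day 1 against MEF (9), between days 1 and 7 of DMSO (8) and over the 4 days of pre-p38i (5) stayed within 1.5 times. A fit of only the groups compared, which leaves 4 libraries and fewer degrees of freedom, called 2 of the 10 genes in pre-p38i on day 1 in place of 5, 0 on day 3 in place of 2, 0 on day 5 in place of 4 and 1 on day 7 in place of 4. In the same fit 19 of the other pathway genes were called in MEF p38i in place of 47 and 12 on day 1 of p38i in place of 28. Shares of all genes called in these fits were not recorded. Leaving out libraries, where a lone library is assumed to vary like the other groups, gave 3 to 5 of the 10 genes in pre-p38i on day 1, 0 to 2 on day 3, 1 to 3 on day 5, 1 to 3 on day 7 and 1 to 2 for the change from day 1 to day 7. It gave 28 to 41 other pathway genes in MEF p38i, 13 to 24 on day 1 of p38i and 17 to 36 for the change of the p38i difference. The replicate block called 6 of the 10 genes in MEF p38i and 5 over the 4 days of pre-p38i, as without it. The block added Atf4 on day 5 of pre-p38i (5 in place of 4), and changed no other call of the 10 genes. Rounding to whole TPM limits Trib3, Chac1 and Slc7a11, whose values were under 20 in every library of the induction.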
